A study of Mus musculus with 24 samples.

Results

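The 10 genes described here encode the tropomyosins and a set of contractile proteins that mark myofibroblasts. They were chosen by symbol, as Tpm1, Tpm2, Tpm3, Tpm4, Acta1, Acta2, Tagln, Cnn1, Cnn2 and Myl9. All 10 had a line among the 13534 genes counted in whole-cell RNA, and 7 of them were among the 11568 genes counted in cell fractions, where Tagln, Cnn1 and Myl9 were not analysed. The RNA came from NIH3T3, a mouse embryonic fibroblast line. Every library, controls included, came from cells that had received an RNA mimic at 10 nM, either of miR-29b or of a scrambled sequence, and both mimics carried 3-cyanovinylcarbazole, a base analogue that light can link to the strand it pairs with. Medium was added at 24 h and the harvest followed 8 h later. The 4 whole-cell groups were the miR-29b pulldown, the scrambled pulldown, the miR-29b input and the scrambled input, with 4 libraries in each, and the cytoplasm and the nucleus had 1 library for each of the same combinations. No cells without a mimic were analysed here, and all values describe cells that hold the mimic in excess.

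Tropomyosins are coiled-coil proteins that lie end to end along actin filaments and set which myosins and other actin-binding proteins reach the filament. Fibroblasts make cytoskeletal forms from all 4 mammalian tropomyosin genes, each gene giving several proteins through alternative promoters and splicing, and a count per gene does not separate these forms. A fibroblast that turns into a myofibroblast, the contractile cell of wounds and scars, adds smooth muscle proteins to its stress fibres. A microRNA lowers the output of mRNAs that pair with its seed, and miR-29 is known in fibroblasts for its matrix targets.

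The mature mouse miR-29 sequences are shown because the pulldown is read through pairing with this microRNA, and capitals mark the seed, bases 2 to 8, which the 3 family members share.
mmu-miR-29b-3p: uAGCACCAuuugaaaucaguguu
mmu-miR-29a-3p: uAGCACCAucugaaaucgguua
mmu-miR-29c-3p: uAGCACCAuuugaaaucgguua
These are RefSeq sequences on GRCm38.p6, where miR-29b is encoded on the plus strand at chr1:195037091-195037113 and on the minus strand at chr6:31063025-31063047. Written as DNA, the reverse complement of the seed followed by an A is TGGTGCTA, which is the type of site called an 8mer. The sequence of the modified mimic is not given in the sources used here. Among the 10 genes, the authors' deposited table marks a predicted site in Tpm1 alone, where all 4 of its site marks are set. By their names these marks overlap: any site, an 8mer, a context score, and an 8mer with that score. A single site may carry all 4, so they do not count sites. Any site mark is carried by 4.3% of the 11797 protein-coding genes there, and 1.25% carry the 8mer mark.

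The whole-cell libraries held 7409157 to 55153996 listed counts, and the fraction libraries held 5320421 to 20142591. The table's headers call replicates 1 to 3 lysed and replicate 4 intact. Replicate 4 stood apart from the others in every group except the scrambled pulldown: the median chi-square per gene against replicates 1 to 3 was 25.5 to 30.2 in the miR-29b pulldown, 30.0 to 35.9 in the miR-29b input and 14.4 to 16.8 in the scrambled input, but 1.26 to 6.54 in the scrambled pulldown. Replicate 3 lay close to the sum of replicates 1 and 2 of its group, with a median chi-square per gene of 0.904 in the miR-29b pulldown, 1.11 in the scrambled pulldown, 0.756 in the miR-29b input and 0.993 in the scrambled input. Against replicates 1 and 2 singly it was 3.29 and 3.89 in the miR-29b pulldown and 7.19 and 1.20 in the scrambled pulldown. In the inputs it was 0.937 and 1.03 with miR-29b and 1.34 and 1.08 with the scrambled mimic. The labels do not state that replicates are separate cultures, so the p-values measure the spread between these libraries, which may be technical. Replicates 1 to 3 may therefore amount to fewer than 3 independent libraries, which was not tested, and n = 4 per group counts libraries. The main fit took the 4 libraries of a group together, with no term for lysed or intact. The spread behind its SE and p-values thus also holds the difference between replicate 4 and replicates 1 to 3. Beside the pooled values, some results are also given for replicates 1 to 3 alone or for a set of 10 libraries, which holds replicates 1, 2 and 4 of the miR-29b pulldown and of the scrambled input but only replicates 1 and 2 of the scrambled pulldown and of the miR-29b input.

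The question put to each gene was whether the pulldown with miR-29b recovered more of its RNA, relative to input, than the pulldown with the scrambled mimic did. This difference of 2 log2 ratios is called the mimic-specific change below. Of the 8 genes that passed the filter on low counts, Tpm1 was recovered more with miR-29b and Tpm2 and Acta1 were recovered less. The mimic-specific change was 4.40-fold upward for Tpm1, 3.38-fold downward for Tpm2 and 7.97-fold downward for Acta1. Tpm3, Tpm4, Acta2, Cnn1 and Cnn2 did not pass the test. Across all 12915 genes tested, 26.2% passed in this comparison, 17% upward and 9.21% downward, so 3 of 8 is not far from what the whole table gives. The split depends on the scaling, with 2192 genes upward and 1190 downward here, 1662 and 2400 with upper-quartile factors, and 2466 and 283 with the authors' library totals. Tagln and Myl9 were too low to be tested.

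**Figure D1:**
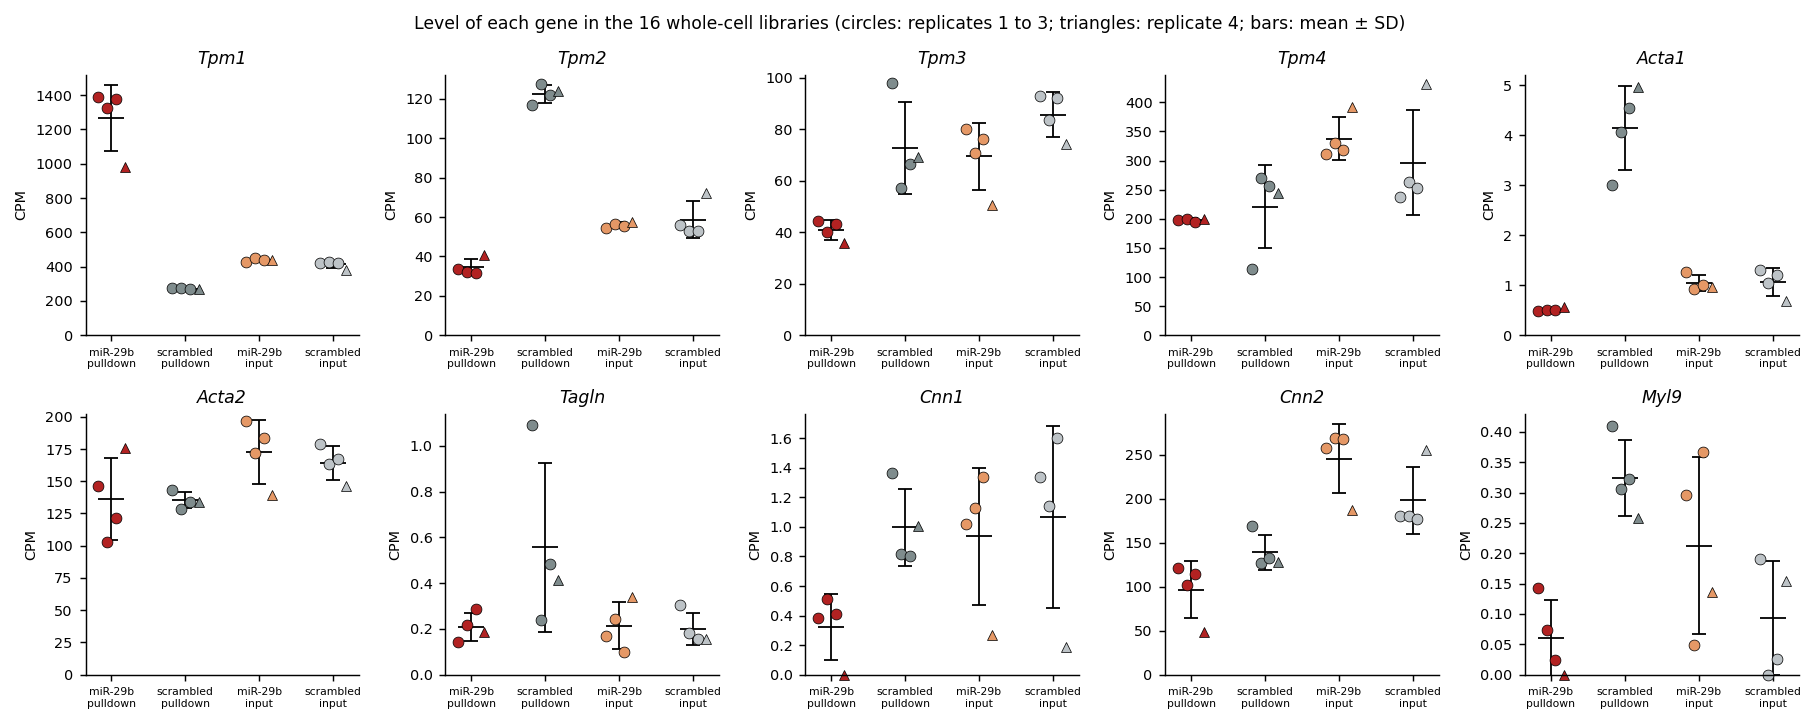
Level of each of the 10 genes in every whole-cell library, in CPM scaled by TMM, on linear axes that start at 0. Circles are replicates 1 to 3, triangles are replicate 4, and bars give the mean ± SD of each group of 4. Tpm1 is highest in the 4 miR-29b pulldown libraries (983 to 1388 CPM), and Tpm2 and Acta1 are lowest there.

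Tpm1 (ENSMUSG00000032366; chromosome 9, 67022590 to 67049672, GRCm38.p6) encodes the tropomyosin that gives, among others, the high molecular weight forms found on stress fibres. In replicates 1 to 4 its level was 1388, 1326, 1376 and 983 CPM in the miR-29b pulldown, against 274, 273, 269 and 271 CPM in the scrambled pulldown. CPM are counts scaled to library size, after TMM factors. In the inputs it was 430, 448, 440 and 436 CPM with miR-29b, against 420, 426, 422 and 382 CPM with the scrambled mimic. Every miR-29b pulldown library stood above every other library, and every scrambled pulldown library stood below both inputs. The mimic-specific log2 change was 2.14 ± 0.20 (SE, n = 4 per group, edgeR adjusted p = 3.14e-06). Both arms contributed to it. Tpm1 was 2.89-fold higher in the miR-29b pulldown than in its input (log2 1.53 ± 0.14 SE, edgeR adjusted p = 1.05e-06) and 1.52-fold lower in the scrambled pulldown than in its own (log2 -0.60 ± 0.14 SE, edgeR adjusted p = 0.00339). The depletion in the scrambled arm did not pass without replicate 3 of every group (edgeR adjusted p = 0.0863) or in the 10 libraries (adjusted p = 0.20). Between the pulldowns the difference was 4.67-fold (log2 2.22 ± 0.15 SE, edgeR adjusted p = 1.87e-08).

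The replicate sets differed in the size of this change. In replicates 1 to 3 the mimic-specific log2 change of Tpm1 was 2.29 ± 0.13 (SE, edgeR adjusted p = 8.82e-08), and in the replicate 4 libraries, which have no test of their own, it was 1.67. The lowest miR-29b pulldown value, 983 CPM, belongs to replicate 4. Over all 27 alternatives run, the change ranged between 1.83 and 2.45 and passed in each.

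Tpm2 (ENSMUSG00000028464; chromosome 4, 43513726 to 43523583), which encodes beta-tropomyosin, moved the other way. Its level was 33.8, 32.2, 31.7 and 40.7 CPM in the miR-29b pulldown, against 117, 127, 122 and 124 CPM in the scrambled pulldown. The inputs lay between the pulldowns, at 54.4, 56.4, 55.2 and 57.5 CPM with miR-29b and 56.0, 52.7, 53.0 and 72.4 CPM with the scrambled mimic. No library of a pulldown overlapped the inputs, and the pulldowns lay on opposite sides of them. For Tpm2 the mimic-specific log2 change was -1.76 ± 0.18 (SE, n = 4 per group, edgeR adjusted p = 8.57e-06). The scrambled pulldown was 2.09-fold above its input (log2 1.07 ± 0.13 SE, edgeR adjusted p = 2.94e-05), and the miR-29b pulldown was 1.62-fold below its own (log2 -0.69 ± 0.13 SE, edgeR adjusted p = 0.000365). The second of these did not pass with the authors' library totals (adjusted p = 0.108) or in the 10 libraries (adjusted p = 0.0587), whereas the mimic-specific change passed in all 27 alternatives run, between -2.04 and -1.46. Replicates 1 to 3 gave -1.93 ± 0.11 (SE, edgeR adjusted p = 1.21e-07), and replicate 4 gave -1.27 with no test. Tpm2 overlaps Car9, which was not analysed here, and reads of overlapping genes cannot be told apart without a strand setting.

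The make-up of the tropomyosin reads differed between the pulldowns. Tpm1 held 83.4, 83.0, 83.6 and 78.0% of the counts of the 4 tropomyosin genes in the miR-29b pulldown, against 45.4, 37.6, 37.6 and 38.2% in the scrambled pulldown. In the inputs it held 46.6 to 49.5% with miR-29b and 39.8 to 52.0% with the scrambled mimic. Tpm2 held 1.92 to 3.23% in the miR-29b pulldown, 17.1 to 19.3% in the scrambled pulldown, 6.14 to 6.24% in the miR-29b input and 6.38 to 7.53% in the scrambled input. The number of Tpm1 counts per Tpm2 count, which does not depend on how libraries are scaled, was 41.1, 41.2, 43.5 and 24.2 in the miR-29b pulldown, against 2.35, 2.15, 2.20 and 2.18 in the scrambled pulldown. It was 7.59 to 7.97 in the miR-29b input and 5.29 to 8.09 in the scrambled input. These shares are of counts, which grow with transcript length, and they do not rank the genes by molecules. They leave out Tpm3-rs7, a listed locus related to Tpm3 that may hold reads of that gene. Summed over the 4 genes, the level was 1260 to 1664 CPM in the miR-29b pulldown, 603 to 728 CPM in the scrambled pulldown, 875 to 937 CPM in the miR-29b input and 807 to 961 CPM in the scrambled input.

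**Figure D2:**
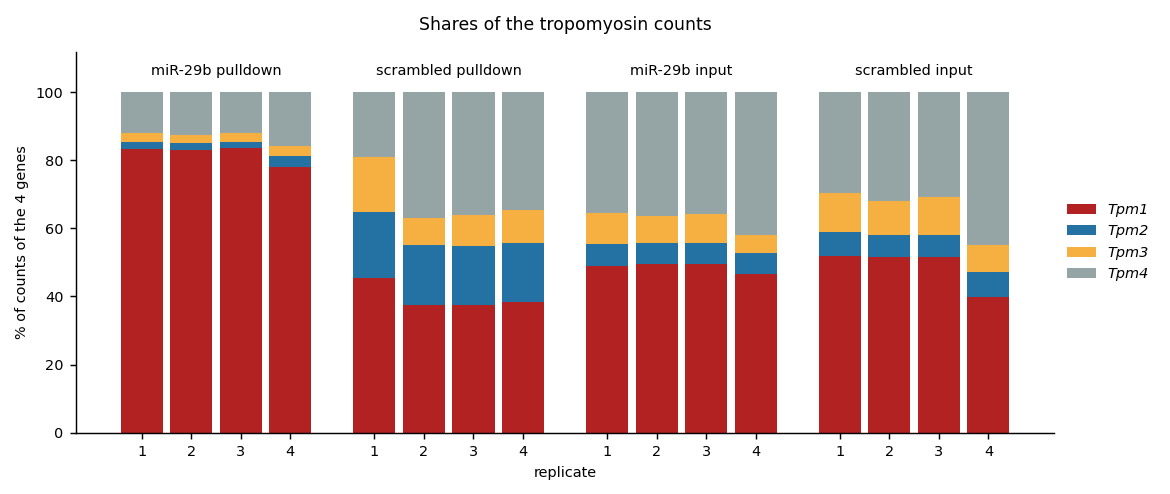
Share of each tropomyosin gene in the summed counts of Tpm1, Tpm2, Tpm3 and Tpm4, in percent, for each of the 16 whole-cell libraries. Counts of the related locus Tpm3-rs7 are not included. Tpm1 holds 78.0 to 83.6% in the miR-29b pulldown and 37.6 to 45.4% in the scrambled pulldown, and Tpm2 holds 1.92 to 3.23% against 17.1 to 19.3%.

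Tpm3 (ENSMUSG00000027940; chromosome 3, 90072651 to 90100902) and Tpm4 (ENSMUSG00000031799; chromosome 8, 72135288 to 72153142) encode mainly low molecular weight cytoskeletal forms in fibroblasts. Tpm3 was at 44.5, 40.0, 43.3 and 36.0 CPM in the miR-29b pulldown, against 98.2, 57.1, 66.5 and 69.2 CPM in the scrambled pulldown. The inputs held 80.1, 71.0, 76.3 and 50.8 CPM with miR-29b and 92.9, 83.4, 92.1 and 74.3 CPM with the scrambled mimic. All 4 miR-29b pulldown libraries were below all other libraries. The pulldowns differed by 1.77-fold, lower with miR-29b (log2 -0.83 ± 0.18 SE, edgeR adjusted p = 0.00141), but the mimic-specific change did not pass (log2 -0.53 ± 0.25 SE, edgeR adjusted p = 0.144). With the authors' library totals the difference between pulldowns did not pass either (adjusted p = 0.0739), and with upper-quartile factors the mimic-specific change passed (adjusted p = 0.0278). A related locus, Tpm3-rs7, is also listed, so reads shared between the copies leave the Tpm3 level uncertain; its own mimic-specific log2 change was -0.12 ± 0.23 (SE, edgeR adjusted p = 0.742).

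Tpm4 was at 198, 200, 195 and 200 CPM in the miR-29b pulldown, against 115, 270, 257 and 244 CPM in the scrambled pulldown. In the inputs it was 311, 330, 318 and 392 CPM with miR-29b and 238, 264, 253 and 432 CPM with the scrambled mimic. The pulldown groups overlapped through replicate 1 of the scrambled pulldown, which also had the fewest counts of all whole-cell libraries. For Tpm4 the mimic-specific log2 change was -0.35 ± 0.34 (SE, edgeR adjusted p = 0.505), which leaves its direction unsettled, and the 10 libraries gave 0.01 (adjusted p = 0.992). Tpm4 was 1.70-fold lower in the miR-29b pulldown than in its input (log2 -0.77 ± 0.24 SE, edgeR adjusted p = 0.0156), a call that was lost with the authors' library totals (adjusted p = 0.23), without replicate 3 of every group (0.0916) or in the 10 libraries (0.201).

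Acta1 (ENSMUSG00000031972; chromosome 8, 123891758 to 123894775) encodes skeletal muscle alpha-actin, and its level in these fibroblasts was low. It was at 0.475, 0.509, 0.503 and 0.560 CPM in the miR-29b pulldown, against 3.00, 4.07, 4.54 and 4.96 CPM in the scrambled pulldown. These levels rest on 10, 14, 21 and 18 counts with miR-29b and on 22, 120, 141 and 192 counts with the scrambled mimic. The inputs were at 1.27, 0.931, 1.00 and 0.972 CPM with miR-29b and at 1.30, 1.05, 1.21 and 0.679 CPM with the scrambled mimic. As for Tpm2, the pulldowns lay on opposite sides of the inputs without overlap. The scrambled pulldown was 3.93-fold above its input (log2 1.98 ± 0.25 SE, edgeR adjusted p = 3.52e-05), and the miR-29b pulldown was 2.03-fold below its own (log2 -1.02 ± 0.26 SE, edgeR adjusted p = 0.00378). The mimic-specific log2 change was -2.99 ± 0.36 (SE, n = 4 per group, edgeR adjusted p = 2.42e-05), with -2.81 ± 0.32 in replicates 1 to 3 (SE, edgeR adjusted p = 2.01e-05) and -3.48 in replicate 4, which has no test. It passed in all 27 alternatives run, between -3.29 and -2.70, whereas the depletion with miR-29b alone did not pass with the authors' library totals (adjusted p = 0.101), without replicate 3 of every group (0.0507) or in the 10 libraries (0.107).

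Actins are close paralogues, and reads that fit several of them may be split or dropped by the counting, so the Acta1 level is uncertain. Of 13 skeletal muscle markers, 11 were not analysed here, Myod1, Myog and Ckm among them. The other markers, Des and Ttn, summed to 1.06 to 2.38 CPM in the miR-29b pulldown, 0.916 to 42.7 CPM in the scrambled pulldown, 0.882 to 1.87 CPM in the miR-29b input and 0.802 to 1.70 CPM in the scrambled input. Ttn, the giant sarcomere protein titin, was at 40.1, 0.102, 4.03 and 5.63 CPM in replicates 1 to 4 of the scrambled pulldown. Replicate 1, with the most Ttn and the least Acta1 of that group, was also the least deep whole-cell library, with 22 Acta1 counts. The part of these markers in the Acta1 result was not tested.

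Acta2 (ENSMUSG00000035783; chromosome 19, 34240336 to 34255585) encodes smooth muscle alpha-actin, the standard marker of myofibroblasts. Its level was 147, 103, 121 and 176 CPM in the miR-29b pulldown, against 143, 129, 134 and 134 CPM in the scrambled pulldown. The inputs were at 197, 172, 183 and 139 CPM with miR-29b and 179, 164, 167 and 147 CPM with the scrambled mimic. The pulldown libraries overlapped fully. For Acta2 the mimic-specific log2 change was -0.06 ± 0.24 (SE, edgeR adjusted p = 0.883), and between the pulldowns it was 0.02 ± 0.17 (SE, edgeR adjusted p = 0.951); both values changed sign under several alternatives. Acta2 in the miR-29b pulldown against its input was at -0.34 ± 0.17 (SE, edgeR adjusted p = 0.101), and passed in replicates 1 to 3 (log2 -0.55, adjusted p = 0.00148), with upper-quartile factors (0.0132) and if replicate 4 of the miR-29b pulldown is left out (0.0171). Acta2 counts per Acta1 count were 309, 202, 241 and 314 in the miR-29b pulldown, against 47.8, 31.6, 29.6 and 27.1 in the scrambled pulldown. The inputs held 143 to 185 with miR-29b and 138 to 216 with the scrambled mimic. The 2 alpha-actins were thus recovered unequally in the same libraries.

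Cnn2 (ENSMUSG00000004665; chromosome 10, 79988600 to 79995400) encodes calponin 2, an actin-binding protein made by many non-muscle cells. It was at 121, 102, 115 and 49.0 CPM in the miR-29b pulldown, against 169, 127, 133 and 128 CPM in the scrambled pulldown. The inputs held 258, 270, 268 and 187 CPM with miR-29b and 181, 180, 177 and 255 CPM with the scrambled mimic. Cnn2 was 2.54-fold lower in the miR-29b pulldown than in its input (log2 -1.35 ± 0.25 SE, edgeR adjusted p = 0.000283). The mimic-specific log2 change was -0.83 ± 0.34 (SE, edgeR adjusted p = 0.0869) and did not pass. In replicates 1 to 3 it was -0.89 ± 0.17 (SE, edgeR adjusted p = 0.00113), in replicate 4 it was -0.94 with no test, and without replicate 4 of the scrambled input it was -0.96 (adjusted p = 0.0453). The inputs of replicate 4 lay on the other side of their groups, low with miR-29b and high with the scrambled mimic.

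Cnn1 (ENSMUSG00000001349; chromosome 9, 22099221 to 22109221), the smooth muscle calponin, was near the limit of counting. It was at 0.380, 0.509, 0.407 and 0 CPM in the miR-29b pulldown, against 1.36, 0.814, 0.805 and 1.01 CPM in the scrambled pulldown. The count of 0 allows a level of up to 0.0933 CPM. The inputs held 1.02, 1.13, 1.34 and 0.271 CPM with miR-29b and 1.34, 1.14, 1.60 and 0.185 CPM with the scrambled mimic. All 4 miR-29b pulldown libraries were below all 4 scrambled pulldown libraries, but neither the difference between pulldowns (log2 -1.58 ± 0.75 SE, edgeR adjusted p = 0.0992) nor the mimic-specific change (log2 -1.38 ± 1.02 SE, edgeR adjusted p = 0.353) passed. The first of these passed in replicates 1 to 3 (adjusted p = 0.0103), with DESeq2 (0.0443), with upper-quartile factors (0.0434), and with the replicate number (0.0139) or the replicate set (0.00805) as a block. Against its input Cnn1 did not pass in the miR-29b pulldown (log2 -1.51 ± 0.74 SE, edgeR adjusted p = 0.0995) but did in replicates 1 to 3 (0.00121), with either block (0.0349 and 0.0227) and if replicate 4 of the miR-29b input is left out (0.04).

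Tagln and Myl9 stayed under the filter. Tagln (ENSMUSG00000032085; chromosome 9, 45929628 to 45936058) encodes transgelin, an early marker of smooth muscle, and was at 0.142, 0.218, 0.288 and 0.187 CPM in the miR-29b pulldown, against 1.09, 0.237, 0.483 and 0.413 CPM in the scrambled pulldown. The inputs were at 0.170, 0.245, 0.10 and 0.339 CPM with miR-29b and 0.306, 0.183, 0.155 and 0.154 CPM with the scrambled mimic. Myl9 (ENSMUSG00000067818; chromosome 2, 156775408 to 156781657) encodes a regulatory light chain of myosin II and was at 0.142, 0.0728, 0.0240 and 0 CPM in the miR-29b pulldown, against 0.409, 0.305, 0.322 and 0.258 CPM in the scrambled pulldown. In the inputs Myl9 was at 0.297, 0.0490, 0.367 and 0.136 CPM with miR-29b and 0.191, 0, 0.0258 and 0.154 CPM with the scrambled mimic. The counts of 0 allow up to 0.0933 CPM in the miR-29b pulldown and up to 0.137 CPM in the scrambled input. Tagln also overlaps Pcsk7, which had a mimic-specific log2 change of -0.79 ± 0.24 (SE, edgeR adjusted p = 0.0248).

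By these counts the label of contractile myofibroblast genes therefore fits the set only in part. Acta2 was at 139 to 197 CPM in the inputs, but Tagln, Cnn1 and Myl9 were at no more than 1.60 CPM in any whole-cell library. For Tagln this level is uncertain, since it overlaps Pcsk7 and reads of overlapping genes cannot be told apart without a strand setting. Of 6 smooth muscle markers, 4 were listed, Smtn, Lmod1, Actg2 and Des, and they summed to 5.65 to 13.2 CPM in the miR-29b pulldown, 11.96 to 13.9 CPM in the scrambled pulldown, 6.36 to 14.9 CPM in the miR-29b input and 6.84 to 18.1 CPM in the scrambled input. Myh11 and Myocd, which define that lineage, were not analysed here. By contrast 9 of 10 fibroblast markers, among them Col1a1, Col1a2 and Vim, summed to 4415 to 7234 CPM in the miR-29b input and 4442 to 5435 CPM in the scrambled input. The single epithelial marker listed, Krt8, was at no more than 3.27 CPM in any library, no endothelial marker was analysed, and the 2 leukocyte markers listed, Cd68 and Cd14, summed to 3.21 to 9.12 CPM over all libraries.

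**Figure D3:**
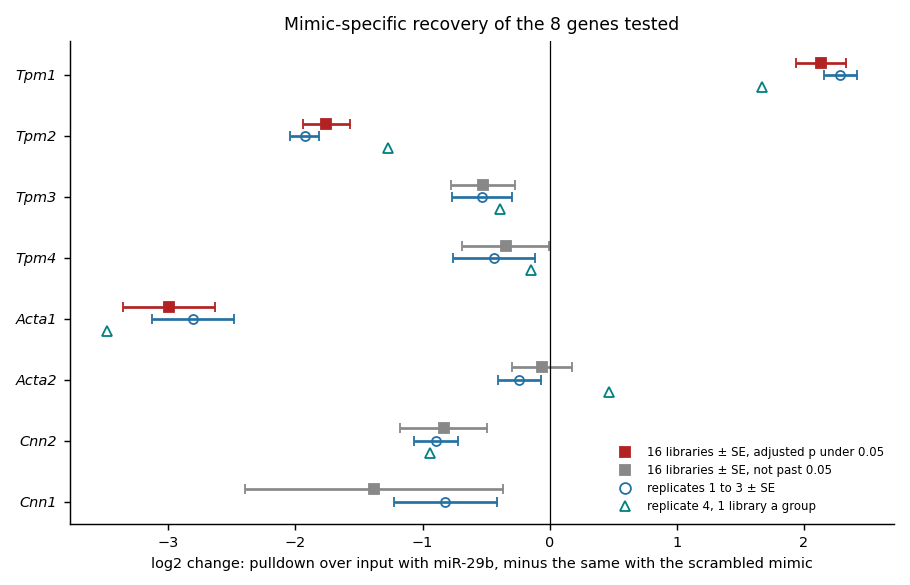
Mimic-specific log2 change of the 8 tested genes, as (miR-29b pulldown minus miR-29b input) minus (scrambled pulldown minus scrambled input). Squares with ± SE are the fit over 16 libraries, red where it passed, circles with ± SE are replicates 1 to 3, and triangles are replicate 4, without Cnn1 in replicate 4, where the miR-29b pulldown had no count. Tpm1 lies at 2.14, Tpm2 at -1.76 and Acta1 at -2.99, and the other 5 did not pass the test.

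Counted by comparison, the pulldowns differed in 4 of the 8 tested genes, 1 higher with miR-29b (Tpm1) and 3 lower (Tpm2, Tpm3 and Acta1), where 45.4% of all genes tested passed, 24.5% higher and 20.9% lower. The miR-29b pulldown differed from its input in 6 of 8, with Tpm1 higher and Tpm2, Tpm3, Tpm4, Acta1 and Cnn2 lower, where 51.6% of all genes passed, 28.4% higher and 23.2% lower. In replicates 1 to 3 all 8 differed there, with Acta2 and Cnn1 added, where 65% of all genes passed, and with the authors' library totals 2 differed, Tpm1 and Cnn2, where 45.2% did. The scrambled pulldown differed from its input in 3 of 8, with Tpm2 and Acta1 higher and Tpm1 lower, where 35.9% of all genes passed, 18.5% higher and 17.4% lower. These comparisons share libraries and are not independent of each other.

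The inputs asked a different question, whether 8 h after medium was added the miR-29b mimic had altered the level of these RNAs in the cell. None of the 8 tested genes differed between the inputs by edgeR (all adjusted p = 0.9999), none had an unadjusted p under 0.05, and DESeq2 called none; 0.0542% of all genes passed. The log2 differences lay between -0.30 for Tpm3 and 0.31 for Cnn2, and that of Tpm1 was 0.09 ± 0.14 (SE). In replicates 1 to 3 alone Cnn2 passed, at 0.55 (adjusted p = 0.0495). Fewer cells of a type and less RNA per cell cannot be told apart in bulk RNA.

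In the cell fractions, where each combination had 1 library and no test was possible, the tropomyosins behaved unlike each other. In the cytoplasm Tpm1 was at 449 CPM in the miR-29b pulldown, against 379 CPM in the scrambled pulldown, with exact 95% counting intervals of 434.7 to 463.5 and 360.2 to 399.2 CPM. This 1.18-fold difference is far smaller than the 4.67-fold one in whole-cell RNA, and the difference between them was not tested. The cytoplasmic inputs of Tpm1 were at 390 CPM with miR-29b and 387.5 CPM with the scrambled mimic. In the nucleus Tpm1 was at 340 CPM in the miR-29b pulldown, against 249 CPM in the scrambled pulldown, a 1.36-fold difference. Intervals cover counting error only.

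Tpm4 was 2.37-fold higher in the cytoplasmic miR-29b pulldown, at 316 CPM, against 133 CPM in the scrambled pulldown, but both were below their inputs of 580 CPM with miR-29b and 402 CPM with the scrambled mimic. In whole cells Tpm4 did not differ between the pulldowns (log2 -0.16 ± 0.24 SE, edgeR adjusted p = 0.628). The cytoplasmic scrambled pulldown was the least deep fraction library, with 48.74% of its authors' total listed, against 78.36% in the cytoplasmic miR-29b pulldown. The part of depth in these ratios was not tested. Tpm2 was 2.46-fold lower, at 59.2 CPM in the miR-29b pulldown, against 146.5 CPM in the scrambled pulldown, around inputs of 94.8 CPM with miR-29b and 89.7 CPM with the scrambled mimic. Tpm3 was 4.15-fold lower, at 31.2 CPM in the miR-29b pulldown, against 131 CPM in the scrambled pulldown, with inputs of 68.7 CPM for miR-29b and 78.3 CPM for the scrambled mimic. Tpm2 thus lay on the same sides of its inputs as in whole-cell RNA.

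Acta1 was at 1.55 CPM in the cytoplasmic miR-29b pulldown, against 3.61 CPM in the scrambled pulldown, on 13 and 14 counts, which is 2.32-fold lower by CPM and 2.03-fold lower with the prior count of 5 that the log2 ratios use, and the exact 95% intervals, 0.827 to 2.66 and 1.97 to 6.06 CPM, overlap. Acta2 was at 129 CPM in the miR-29b pulldown, against 195 CPM in the scrambled pulldown, and Cnn2 was at 169 CPM in the miR-29b pulldown, against 230 CPM in the scrambled pulldown. Cnn2 was 2.63-fold below its input in the miR-29b pulldown and 1.77-fold below its input in the scrambled pulldown. So 4 of the 7 genes differed at least 2-fold between the cytoplasmic pulldowns, 1 higher and 3 lower with miR-29b, where 37.2% of all genes did, 20.3% higher and 16.9% lower. In the nucleus 0 of 7 did, where 3.22% of all genes did, 1.26% higher and 1.96% lower, and the log2 ratios lay between -0.29 for Tpm2 and 0.45 for Tpm1.

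**Figure D4:**
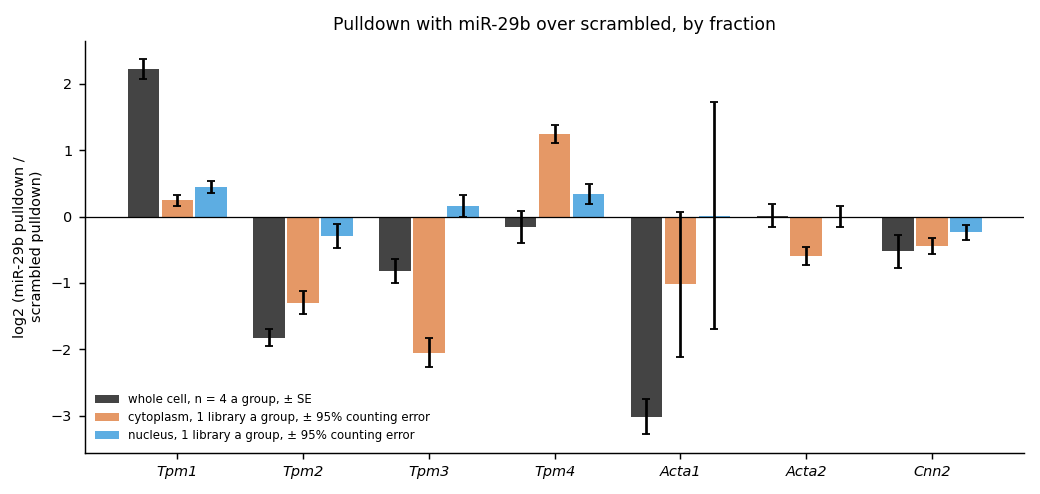
Log2 ratio of the miR-29b pulldown over the scrambled pulldown for the 7 genes measured in fractions, in whole cells (± SE, n = 4 per group) and in cytoplasm and nucleus (1 library per combination, ± 95% counting error). Tpm1 lies at 2.22 in whole cells, 0.24 in the cytoplasm and 0.45 in the nucleus. In the cytoplasm Tpm4 lies at 1.24 and Tpm2, Tpm3 and Acta1 lie below -1, and in the nucleus all 7 lie between -0.29 and 0.45.

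The inputs of the fractions give the level in the nucleus against that in the cytoplasm, which for most of these RNAs depended on the scaling. Tpm4 was 4.54-fold lower in the nucleus than in the cytoplasm with miR-29b and 3.66-fold lower with the scrambled mimic, where 25.9% and 24% of all genes were at least 2-fold lower. Acta1 was 5.2-fold and 2.87-fold lower by CPM, but on 5 and 9 nuclear counts, and 2.85-fold and 2.09-fold lower with the prior count. Cnn2 was 2.27-fold lower in the nucleus with miR-29b. Tpm2 and Acta2 were near 2-fold in both inputs (log2 -1.01 and -0.98 with miR-29b, -0.82 and -1.11 with the scrambled mimic). Tpm1 was at -0.48 with miR-29b and -0.68 with the scrambled mimic, and Tpm3 at -0.09 and -0.38. With library totals in place of TMM the ratios of Tpm1 moved to 0.23 and -0.10 and those of Tpm3 to 0.62 and 0.19. Those of Tpm2 moved to -0.30 and -0.25, of Acta2 to -0.27 and -0.54, and of Cnn2 to -0.47 and -0.34. Tpm4 stayed lower in the nucleus, at -1.47 and -1.30, and Acta1 lay at -1.10 and -0.68. Listed counts were 37.37 and 43.43% of the authors' totals in the nuclear inputs, against 78.94 and 78.65% in the cytoplasmic inputs.

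The authors' deposited score, called PE in the headers and of unknown formula, also sets Tpm1 apart within the set. In the authors' deposited table Tpm1 has a PE of 6.023, 4.166 and 4.243 in replicates 1 to 3 and of 3.093 in replicate 4. The other 9 genes lie between -1.127, for Cnn1 in replicate 3, and 0.677, for Acta2 in replicate 4, in the same table. That table does not set Tpm2 and Acta1 apart, with averages over the lysed replicates of -0.1616 and -0.1892. Averages of Tpm3, Tpm4, Acta2, Cnn1 and Cnn2, which did not pass the mimic-specific test, are lower there, from -0.813 for Cnn1 to -0.2779 for Acta2. The authors' deposited table marks Tpm1 as significant in all lysed replicates, a mark that 5.54% of its protein-coding genes carry, but not in the intact one, and not among the genes considered positive hits. For the fractions the authors' deposited table gives Tpm1 a score of -0.3103 in the cytoplasm and 0.2575 in the nucleus, with no mark.

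Of 10 other actins, calponins, transgelins and myosin light chains, 8 were tested in the mimic-specific comparison, none rose and 1 fell, where 17% of all genes rose and 9.21% fell. Their median log2 change was -0.11, beside -0.0977 over all genes. The one that fell was Actg1, cytoplasmic gamma-actin, at 225, 129, 184 and 171 CPM in the miR-29b pulldown, against 271, 349, 357 and 367 CPM in the scrambled pulldown. Its mimic-specific log2 change was -0.88 ± 0.27 (SE, edgeR adjusted p = 0.0223). It did not pass with the authors' library totals (adjusted p = 0.266), without replicate 3 of every group (0.196), in the 10 libraries (0.1965), or without replicate 1 or 3 of the miR-29b input (0.0501 and 0.0539) or replicate 4 of the scrambled pulldown (0.0505). Tagln2, a transgelin of non-muscle cells, had -0.59 ± 0.24 (SE, edgeR adjusted p = 0.0900). It passed in replicates 1 to 3 (adjusted p = 0.00318), with upper-quartile factors (0.0261), with the replicate number or the set as a block (0.0447 and 0.0423), and without replicate 4 of the scrambled input (0.0269) or of the miR-29b pulldown (0.0413). Actg2, Myl12b, Cnn3, Myl6, Actb and Myl12a did not pass (edgeR adjusted p = 0.539 to 0.958).

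Among 13 genes of myosin II and its regulators, 10 were tested, 2 rose and 4 fell, beside the 17% and 9.21% of all genes, with a median log2 change of -0.65 beside -0.0977. Ppp1cb, the catalytic subunit beta of protein phosphatase 1 that works in myosin phosphatase, was at 617, 849, 738 and 954 CPM in the miR-29b pulldown, against 67.5, 108, 103 and 95.7 CPM in the scrambled pulldown. Its mimic-specific change was 6.78-fold upward (log2 2.76 ± 0.43 SE, edgeR adjusted p = 0.000225), and 3.36 on the log2 scale if replicate 4 of the miR-29b input, at 256 CPM against 88.9 to 99.9 CPM in its group, is left out. Ppp1r12b, a myosin phosphatase targeting subunit, rose 2.58-fold (edgeR adjusted p = 0.000226). Myh9, the heavy chain of non-muscle myosin IIA, fell 2.304-fold (edgeR adjusted p = 0.000358), with 89.2 to 99.7 CPM in the miR-29b pulldown and 223 to 298 CPM in the scrambled pulldown. It did not pass with the authors' library totals (adjusted p = 0.0537). Myh9 in the miR-29b pulldown did not differ from its input (log2 0.11 ± 0.14 SE, edgeR adjusted p = 0.516). In the scrambled pulldown it was 2.49-fold above its input (edgeR adjusted p = 1.18e-05). Ppp1r12c, another targeting subunit, had -0.81 ± 0.21 (SE, edgeR adjusted p = 0.00893), a call that was lost with the authors' library totals (adjusted p = 0.265), without replicate 3 of every group (0.159) or in the 10 libraries (0.307).

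Of 23 regulators of stress fibres and filaments, 21 were tested, 4 rose and 4 fell, again beside 17% and 9.21% of all genes, with a median log2 change of -0.34 beside -0.0977. Vcl, which encodes the focal adhesion protein vinculin, was at 795, 1266, 1029 and 1326 CPM in the miR-29b pulldown, against 83.9, 113, 108 and 102 CPM in the scrambled pulldown. Its mimic-specific change was 9.31-fold upward (log2 3.22 ± 0.64 SE, edgeR adjusted p = 0.00159). In replicate 4 of the miR-29b input Vcl was at 307 CPM, against 56.9 to 62.8 CPM in the rest of that group, and without that library its log2 change was 4.32 (adjusted p = 3.11e-08). Tmod3, a tropomodulin that caps the pointed ends of tropomyosin-coated filaments, rose 5.85-fold (log2 2.55 ± 0.31 SE, edgeR adjusted p = 3.01e-05), with 200 to 293 CPM in the miR-29b pulldown and 34.9 to 63.6 CPM in the scrambled pulldown. Pdlim7, a PDZ and LIM domain protein of stress fibres, rose 2.73-fold (edgeR adjusted p = 6.3e-05). Tln1, talin 1, fell 2.72-fold (edgeR adjusted p = 0.000587), which did not pass in the 10 libraries (adjusted p = 0.0951). Tln1 was not below its input in the miR-29b pulldown (log2 0.41 ± 0.18 SE, edgeR adjusted p = 0.0651). The scrambled pulldown was 3.61-fold above its own input (edgeR adjusted p = 6.39e-06).

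Of 13 genes of the serum response factor pathway, which drives many contractile genes, 8 were tested and none passed by edgeR, with 1 at an unadjusted p under 0.05 and none by DESeq2. Of all genes, 26.2% passed by edgeR and 29.9% by DESeq2. The median log2 change of the list was -0.35. Mkl2, a cofactor of that factor, was at -0.72 ± 0.31 (SE, edgeR adjusted p = 0.109). It passed in replicates 1 to 3 (adjusted p = 0.0117), with upper-quartile factors (0.0277), with the replicate number or the set as a block (0.0265 and 0.023), and if replicate 4 of the miR-29b pulldown is left out (0.0268). Fhl1, Filip1l and Cyr61 were at -0.89, -0.54 and 0.72 (edgeR adjusted p = 0.222 to 0.322). Between the inputs none of the tested genes of these 4 lists passed by edgeR or DESeq2 over all 16 libraries. At an unadjusted p under 0.05 there were 0, 1, 0 and 0. For Vcl and Tmod3 the replicate sets went opposite ways. In replicates 1 to 3 Vcl was at 56.9 to 62.8 CPM with miR-29b, against 104.9 to 116.9 CPM with the scrambled mimic. Tmod3 was at 35.6 to 42.2 CPM, against 56.6 to 61.6 CPM. In replicate 4 Vcl was at 307 against 79.8 CPM and Tmod3 at 66.1 against 48.3 CPM.

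**Figure D5:**
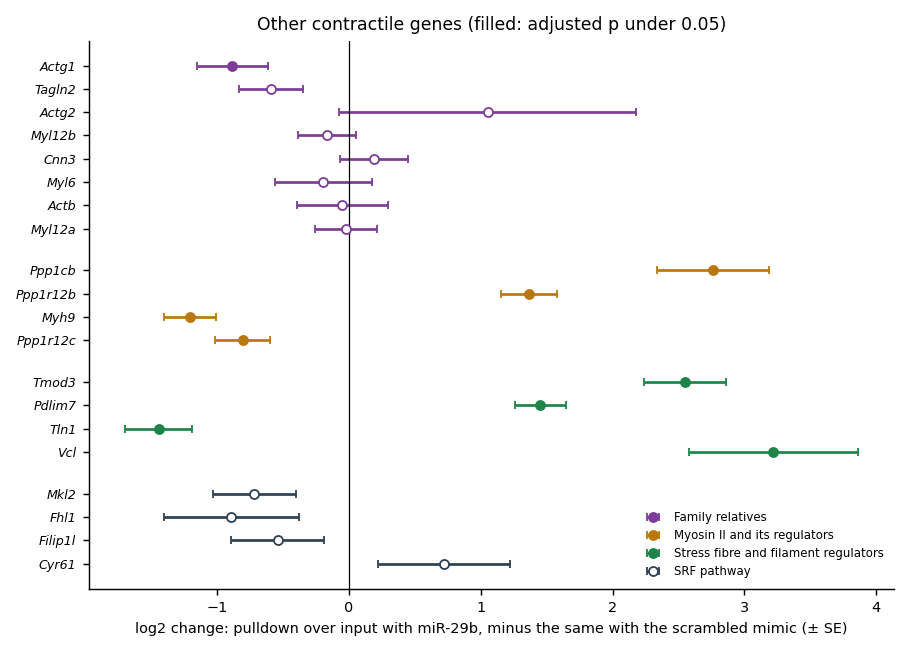
Mimic-specific log2 change of the named genes from the 4 lists around the set, as points ± SE of the fit over 16 libraries. Vcl at 3.22, Ppp1cb at 2.76 and Tmod3 at 2.55 lie highest among the genes that passed (filled points), and Tln1 at -1.44 and Myh9 at -1.20 lie lowest among them.

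The genes whose log2 CPM over the 16 libraries was most like that of Tpm1 were 2310022B05Rik (Pearson's r = 0.995), Peli2 (r = 0.994) and Rnf34 (r = 0.992). Their mimic-specific log2 changes were 2.89, 2.43 and 3.26. Peli2 was at 81.6, 95.9, 86.2 and 59.0 CPM in the miR-29b pulldown, against 13.0, 14.7, 12.6 and 12.7 CPM in the scrambled pulldown, and like Tpm1 it was lowest in replicate 4 of the miR-29b pulldown. Those most like Tpm2 were Srp19 (r = 0.977), Sar1a (r = 0.974) and Safb2 (r = 0.974), with changes of -2.296, -1.94 and -1.59. Sar1a was at 107, 94.2, 104 and 88.5 CPM in the miR-29b pulldown, against 361, 343, 355 and 332 CPM in the scrambled pulldown. These correlations run over libraries that share groups and replicate sets, and they describe a common pattern of levels. Since the genes were picked by them, changes in the same direction follow from the choice and are no separate result.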

How the data were processed

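Whole-cell RNA (16 libraries) and fraction RNA (8 libraries) of NIH3T3 cells were analysed from the deposited counts, whole numbers per gene and library. Per the labels, libraries used 5 ng of RNA (6 ng for the miR-29b input of replicate 4) and a kit primed with random hexamers and oligo-dT. STAR 2.3.0 and mm10 are named per the submitters' processing notes; neither the counting tool nor a strand setting was given in the sources used here. Deposited CPM values, which the authors made as the count plus 1 over a library total larger than the listed counts, served only for that total. The authors' PE score was only described, and so were the authors' marks. Both fractions were read from a single deposited table, since the table named for the nucleus differed from it in 0 bytes.

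Of 14052 lines, 518 repeats were dropped, which left 13534 genes. The test was that of edgeR 4.0.16 (R 4.3.3): filterByExpr with a minimum count of 10, TMM factors, and the quasi-likelihood test on a model of group means over 16 libraries, two-sided, with Benjamini-Hochberg adjustment over the 12915 genes tested within each of 5 comparisons and a threshold of 0.05. A total of 619 genes fell under the filter. Listed counts were 48.9 to 87.3% of the authors' library totals in whole cells. Log2 ratios of fractions used TMM and a prior count of 5, with 2-fold as a description. Levels at 0 are bounded by 3 counts in that library. Same-numbered libraries were checked for pairing through their deviations from group means. Correlations were 0.506 to 0.717 between the inputs and 0.332 to 0.70 between the miR-29b pulldown and the inputs. Those with the scrambled pulldown ran from -0.0962 to 0.365, and the own number was the best match in 2 to 3 of 4 libraries. The numbers were not taken as pairs in the main fit. Fits with the replicate number or the replicate set as a block were run as alternatives. The pipeline was tested on simulated data.

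The members and the gene lists around them were chosen with earlier results of these data known. Genes named beyond the members were all family relatives, the 4 with the smallest mimic-specific p of each other list, the 3 most correlated with Tpm1 and with Tpm2, cell type markers, and loci that overlap or copy a member. Alternatives were other scalings (upper-quartile, DESeq2 1.42.0, the authors' totals), filters, blocks, replicate subsets and leaving out each library. A GRCm38.p6 gene table held all 10 symbols and gave the coordinates and the RefSeq microRNA sequences.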

Additional observations from a re-analysis of the deposited data

Results flagged for a closer look

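In 9 of 40 pairs of a gene and a group, the highest or the lowest library stood apart from the other 3 by a gap that passed Dixon's 95% critical value, where chance flags about 1 in 20 groups. Replicate 4 was the library in 7 of them. Tpm1 was lowest there in the miR-29b pulldown (983 CPM) and in the scrambled input (382 CPM). Tpm4 was highest in replicate 4 of the scrambled input (432 CPM), as was Cnn2 (255 CPM), and Cnn2 was lowest in replicate 4 of the miR-29b input (187 CPM). Cnn1 was lowest in replicate 4 of the miR-29b pulldown (0 CPM) and of the scrambled input (0.185 CPM). In replicate 1 of the scrambled pulldown, the least deep whole-cell library, Tpm4 was lowest (115 CPM) and Cnn2 highest (169 CPM). The part of depth and of the replicate sets in these values was not tested.

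The pulldown over input change differed between the mimics, by the interaction term of the edgeR fit, for Tpm1 (log2 2.14, adjusted p = 3.14e-06), Tpm2 (log2 -1.76, adjusted p = 8.57e-06) and Acta1 (log2 -2.99, adjusted p = 2.42e-05).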

How the results depend on the processing

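Of the gene values recomputed, 1060 kept their direction and their side of the threshold or, for the untested fraction ratios, stayed within counting error. Another 12 lost and 25 gained a call, and 33 changed sign, none of the 33 being called. The remaining 5, cytoplasmic ratios between pulldowns with library totals, moved by more than counting error. Tpm1, Tpm2 and Acta1 passed the mimic-specific test in all 27 alternatives. The scaling moved the median of all genes in that comparison to -0.392 (log2) with upper-quartile factors and 0.214 with the authors' library totals, against -0.098 with TMM; relative to it, Tpm1 lay at 2.23, 2.24 and 2.23, and Acta1 at -2.90, -2.91 and -2.90. The number of the 8 genes called was 5 with upper-quartile factors in the mimic-specific comparison, where 31.5% of all genes passed (3 and 26.2% with TMM). For the miR-29b pulldown over its input it was 2 with the authors' totals and 3 in the 10 libraries, where 45.2% and 34.9% of all genes passed (6 and 51.6% in all libraries). In replicates 1 to 3 it was 5 for the scrambled pulldown over its input, with Acta2 and Cnn2 added, where 54.1% passed (3 and 35.9% in all libraries), and 1 between the inputs, where 1.38% passed (0 and 0.0542% in all libraries). The causes were not tested. Leaving out each library gave 3 to 4 genes in the mimic-specific comparison, 4 to 5 between the pulldowns, 6 to 7 and 3 to 4 for the miR-29b and the scrambled pulldown over input, and 0 between the inputs.

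With the replicate number as a block, 3, 5, 7, 3 and 0 genes were called in these comparisons, where 35.1, 54.7, 59.4, 44.8 and 0.0852% of all genes were; the gene added between the pulldowns and in the miR-29b pulldown over input was Cnn1. Between the inputs every library was most like its own number (0.506 to 0.717), a hint from the data and not from the design. Correlations with the scrambled pulldown ran from -0.0962 to 0.365.

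Sign changes of values that were never called follow. The mimic-specific log2 change of Tpm4 was 0.0121 in the 10 libraries, and that of Acta2 was 0.26 with the authors' totals, 0.0046 without replicate 3 of every group, and -0.20 to 0.0587 on leaving out each library. Between the pulldowns Tpm4 was at 0.0916 with the authors' totals and 0.0492 in the 10 libraries, and Acta2 at -0.28 with upper-quartile factors, -0.0077 with a filter of 2 CPM in 4 libraries, -0.0024 with only those groups, -0.14 in replicates 1 to 3, and -0.13 to 0.13 on leaving out each library. Cnn1 in the scrambled pulldown over input was at 0.30 with the replicate block, 0.29 with the set as a block, 0.25 without replicate 3, 0.27 in the 10 libraries and -0.50 to 0.14 on leaving out each library. Between the inputs Tpm2 was at 0.0217 in replicates 1 to 3, Acta1 at 0.0826 without replicate 3 and 0.14 in the 10 libraries, and Cnn1 at 0.29 in the 10 libraries. Leaving out each library there gave -0.14 to 0.0619 for Tpm2, -0.18 to 0.0618 for Acta1, -0.0016 to 0.13 for Acta2 and -0.56 to 0.11 for Cnn1. Without a filter Myl9 had a mimic-specific log2 change of -3.63 (adjusted p = 0.0379), on 0 to 11 counts per library. The mimic-specific change of Cnn1 was -2.13 in the 10 libraries (adjusted p = 0.442). With library totals the cytoplasmic ratio of Tpm1 between pulldowns was 0.05, against 0.24 with TMM. Counting limits Acta1, Cnn1, Tagln and Myl9, and 1 library per fraction limits all fraction values.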
